A study of Mus musculus with 45 samples.

Results

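T follicular helper (Tfh) cells of mice lacking the sphingosine-1-phosphate receptor S1PR4 were compared with non-Tfh CD4+ T cells of the same genotype. The comparison rested on 12 of the 45 RNA-seq libraries of the series, 6 of Tfh cells and 6 of non-Tfh cells, taken by their labels. Both populations came from S1pr4-/- mice of the strain B6.129P2-S1pr4tm1Dgen/J, crossed back to C57BL/6 for at least 10 generations and aged 8 to 12 weeks, a germline deletion that affects every cell of the animal. The mice received 50 µg ovalbumin and 5 µg lipopolysaccharide in 20 µL of incomplete Freund's adjuvant emulsion in the footpad, and the draining popliteal lymph nodes were taken on day 6. Tfh cells were sorted as TCRβ+ CD4+ PD1+ CXCR5+ and non-Tfh cells as TCRβ+ CD4+ PD1- CXCR5-. The 12 libraries of the same 2 populations from S1pr4+/+ mice (WT) of the same strain, with the same immunization and sort, were set beside them.

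Tfh cells are the CD4+ T cells that enter B cell follicles and help B cells to form germinal centers. The transcription factor BCL6 drives their fate and represses BLIMP1, the product of Prdm1. They lose the receptors CCR7 and S1PR1, which hold T cells in the T cell zone and lead them out of the lymph node, gain CXCR5, which leads them to the follicle, and help B cells with IL-21, IL-4 and CD40 ligand. S1PR4 is a G protein-coupled receptor of the same family as S1PR1, found mainly on leukocytes.

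The total of expected counts per library was 29280430 to 45548215 in the S1PR4-/- libraries and 30902269 to 43668027 in the WT libraries. S1pr4, the deleted gene, had 10 to 40 counts in each S1PR4-/- Tfh library and 18 to 32 in each S1PR4-/- non-Tfh library. This was 0.334 to 1.03 and 0.483 to 1.05 CPM (counts divided by library size in megacounts, with TMM factors over the 24 T cell libraries, as are all levels below), against 53.6 to 168 CPM in the WT libraries. The first principal component of the S1PR4-/- libraries held 69.4% of the variance and separated Tfh from non-Tfh. A set of 3 libraries stood apart: Tfh replicate 3 had the most Ms4a1 and Cd79a, Tfh replicate 6 the most myeloid transcripts, and non-Tfh replicate 1 lay closest to the Tfh cells on this component (-51.3, against -100.8 to -74.0 in the other 5). On it, non-Tfh replicates 1 to 3 (-51.3, -79.9 and -74.0) were all nearer the Tfh cells than replicates 4 to 6 (-93.5, -100.8 and -85.75). Some non-Tfh levels divided the same way, with Tox2 at 17.2, 15.0, 10.0, 2.37, 3.23 and 3.09 CPM in replicates 1 to 6, while Bcl6 did not. The labels give no reason for this division, and it was not tested.

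A gene was counted as changed when its fold change exceeded 1.5 and its adjusted p was under 0.05 (edgeR's quasi-likelihood test, Benjamini-Hochberg over 13390 genes). By this rule 5809 genes, 43.4% of those tested, differed between S1PR4-/- Tfh and non-Tfh cells, 2985 higher in Tfh (22.3%) and 2824 lower (21.1%). With total counts in place of TMM scaling, 2718 were higher and 3182 lower. With Tfh replicates 3 and 6 and non-Tfh replicate 1 set aside, 6226 genes differed. Fold changes are log2(Tfh/non-Tfh) with the SE of the fit, from 6 libraries a group. Of 174 tested genes in 12 lists of T cell programs, 103 were higher and 35 lower in Tfh cells. The 103 include Cxcr5 and Pdcd1, whose proteins define the sort gate. These lists were chosen with earlier results of these data known, so their counts are no independent test.

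**Figure D1:**
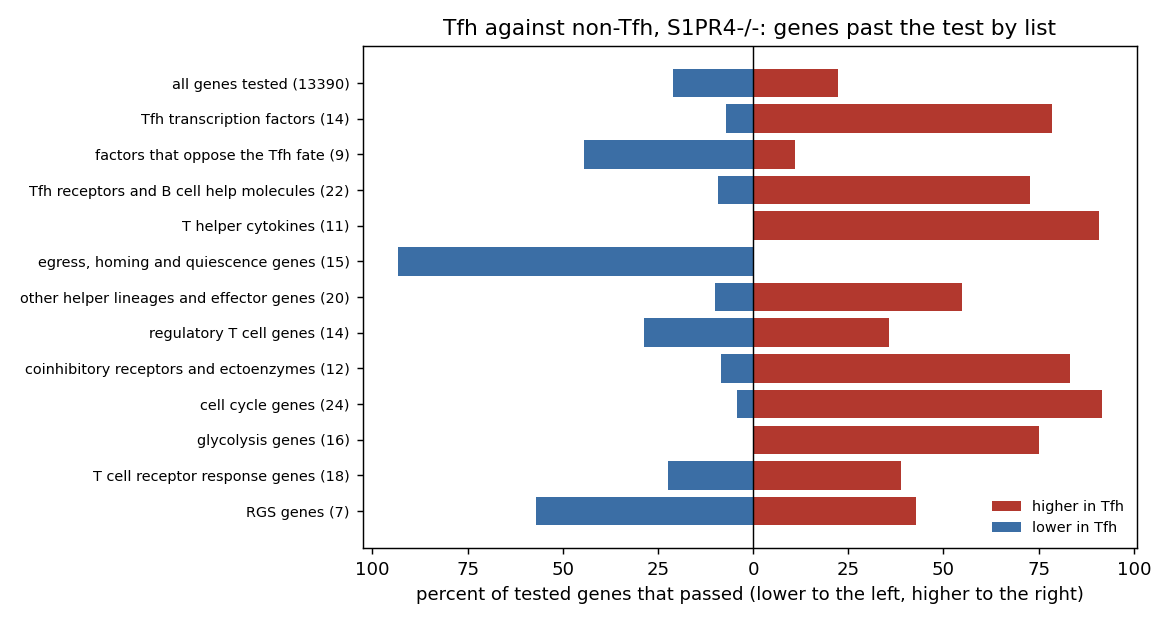
Share of tested genes in each list that were higher (right, red) or lower (left, blue) in S1PR4-/- Tfh than non-Tfh cells, in percent, with the number tested in brackets. The top bar gives all genes tested, 22.3% higher and 21.1% lower. Genes of egress, homing and quiescence lie to the left, and cytokines and cell cycle genes to the right.

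Cxcr5 and Pdcd1 encode the proteins of the sort gate, so their difference follows from the sort and only checks the labels. Cxcr5 was at 740 to 1105 CPM in the 6 Tfh libraries and at 9.41 to 37.0 CPM in the 6 non-Tfh libraries. Pdcd1 was at 553 to 979 CPM and at 13.5 to 60.5 CPM. Both groups were separate for both genes, and Bcl6, a marker that is no part of the gate, was separate as well.

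Among 14 transcription factors known for roles in Tfh cells, 11 rose, 1 fell and 2 did not pass (85.7% called against 43.4% over all genes). Their median log2 fold change was 1.51 against 0.01 over all genes tested. Bcl6 was at 104, 105, 194, 110, 95.4 and 170 CPM in Tfh replicates 1 to 6 and at 45.99, 38.2, 29.2, 34.3, 35.7 and 29.1 CPM in the non-Tfh libraries. Every Tfh library was above every non-Tfh library, and the log2 fold change was 1.89 ± 0.18 (edgeR adjusted p = 5.45e-07). Ascl2, a basic helix-loop-helix factor that induces CXCR5, was at 6.05, 11.8, 31.8, 17.5, 6.83 and 28.03 CPM in the Tfh libraries and had no count in any of the 6 non-Tfh libraries. Against a floor of 3 counts in each non-Tfh library, which covers counting error only, its Tfh mean was at least 198-fold higher. Maf, which promotes IL-21 and IL-4 expression, rose by 3.63 ± 0.28 on the log2 scale from 4.47 to 16.0 CPM in non-Tfh cells to 95.5 to 146 CPM in Tfh cells.

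Tox2, an HMG-box factor, rose further (6.08 ± 0.48), from 2.37 to 17.2 CPM to 428 to 678 CPM. Tox (1.504 ± 0.13), Nfatc1 (2.03 ± 0.10), Batf (1.31 ± 0.19) and Irf4 (1.52 ± 0.23) also rose with no overlap between the groups. Pou2af1, a coactivator of octamer-binding factors best known in B cells, was at 94.1 to 147 CPM in Tfh cells and 5.62 to 12.3 CPM in non-Tfh cells (3.70 ± 0.20). Id3 rose by 0.67 ± 0.18 with overlapping groups, and the call was lost without Tfh replicate 3 (0.55), Tfh replicate 6 (0.56) or non-Tfh replicate 4 (0.57), each under 1.5-fold. Lef1, which with Tcf7 acts upstream of Bcl6, was at 253 to 344 CPM in Tfh cells and 790 to 1017 CPM in non-Tfh cells and fell by 1.56 ± 0.09. Tcf7 was at 1732 to 2009 CPM in Tfh cells and 1850 to 2340 CPM in non-Tfh cells (-0.08 ± 0.07, adjusted p = 0.33), and Stat3 did not pass either (-0.18 ± 0.13, adjusted p = 0.223).

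Of 9 genes that oppose the Tfh fate, 4 fell, 1 rose and 4 did not pass (median log2 fold change -0.28), a share of 55.6% called against 43.4% over all genes. Bach2, a repressor of effector differentiation, was at 8.54, 11.1, 11.5, 5.61, 8.44 and 5.82 CPM in the Tfh libraries and at 112 to 151 CPM in the non-Tfh libraries (-3.94 ± 0.18, edgeR adjusted p = 3.95e-10). Klf2, which drives S1pr1, was at 92.7 to 138 CPM and 440 to 575 CPM (-2.002 ± 0.102). The forkhead factors Foxp1 (-1.61 ± 0.11) and Foxo1 (-1.25 ± 0.07) fell as well, with separate groups. Prdm1, the antagonist of Bcl6, was at 12.7 to 35.0 CPM in Tfh cells and 11.01 to 26.4 CPM in non-Tfh cells. It was higher by 0.64 ± 0.25 (adjusted p = 0.0363), with overlapping groups, and this call was lost when any 1 of Tfh replicates 1, 4 or 5 or non-Tfh replicates 2 to 6 was left out (adjusted p = 0.062 to 0.113). Il2ra, the IL-2 receptor alpha chain, varied from 38.8 to 274 CPM among the Tfh libraries and did not pass (0.16 ± 0.41, adjusted p = 0.745). Without Tfh replicate 5 its estimate was -0.21, with a replicate block -0.17, and with the 3 libraries set aside it was called higher (0.68, adjusted p = 0.0406).

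Of 22 receptors and B cell help molecules, 16 rose, 2 fell and 4 did not pass, with a median of 1.22. The 16 include Cxcr5 and Pdcd1, whose rise follows from the sort. In this list 81.8% were called against 43.4% over all genes. Sh2d1a, which encodes SAP, the adaptor that Tfh cells need for lasting contact with B cells, was at 190 to 276 CPM in Tfh cells and 47.7 to 72.6 CPM in non-Tfh cells (2.08 ± 0.11). Icos, the costimulatory receptor that sustains Tfh cells, was at 465 to 748 CPM and 102 to 269 CPM (1.95 ± 0.22). Tigit (5.15 ± 0.47), P2rx7, an ATP-gated channel that limits Tfh numbers (3.41 ± 0.15), Slamf6 (1.61 ± 0.09), Cd200 (1.42 ± 0.14) and Btla (0.99 ± 0.08) rose with no overlap. Angptl2, a secreted protein, rose by 5.61 ± 0.67 to 560 to 821 CPM, and its non-Tfh level ran from 1.34 to 41.4 CPM.

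Receptors with opposite roles in the follicle rose together. S1pr2, which confines cells to the germinal center, was at 57.3 to 99.6 CPM in Tfh cells and 17.6 to 23.5 CPM in non-Tfh cells (2.04 ± 0.13). Gpr183, the oxysterol receptor EBI2 that draws cells away from the follicle center, also rose, to 487 to 622 CPM from 253 to 319 CPM (1.00 ± 0.07, edgeR adjusted p = 1.79e-08). Cxcr4 rose by 1.19 ± 0.36 with overlapping groups, and this call was lost with the 3 libraries set aside (1.05, adjusted p = 0.0527). Il21r, the IL-21 receptor (-0.95 ± 0.17), and Il6ra, the receptor of the Tfh-inducing cytokine IL-6 (-1.31 ± 0.11), fell with separate groups. Cd40lg was at 126 to 202 CPM in Tfh cells and 105 to 134 CPM in non-Tfh cells. Its difference was 0.46 ± 0.10 (adjusted p = 0.000708), under the 1.5-fold limit.

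Of 16 cytokine genes, 11 had enough counts to be tested. Among these 10 rose, 0 fell and Tnf did not pass, with a median of 2.94 (90.9% called against 43.4% over all genes). Il21 was at 179, 242, 320, 229, 124 and 264 CPM in the Tfh libraries and at 5.08, 3.903, 2.37, 1.34, 0.49 and 0.51 CPM in the non-Tfh libraries (6.65 ± 0.48, edgeR adjusted p = 2.52e-08). Il4 was at 8.47, 10.97, 24.03, 11.7, 11.7 and 25.1 CPM and at 0.0327 to 0.312 CPM (6.49 ± 0.44). The lowest Tfh library was above the highest non-Tfh library for both cytokines. Tnfsf8, the CD30 ligand (2.13 ± 0.10), Tnfsf11, which encodes RANKL (2.95 ± 0.22), and Lif (3.77 ± 0.50) also rose with separate groups. Il10 rose by 4.09 ± 0.58 but reached only 0.935 to 3.41 CPM. Ifng, the TH1 cytokine, was at 10.9, 2.34, 0.173, 2.87, 5.18 and 1.20 CPM in the Tfh libraries and 0.196 to 0.714 CPM in non-Tfh cells. It rose by 3.10 ± 0.70 (adjusted p = 0.00116), with Tfh replicate 3 below every non-Tfh library. Il2 was at 1.00 to 2.40 CPM in Tfh cells and 0.261 to 1.07 CPM in non-Tfh cells (1.23 ± 0.33).

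Of 15 tested genes for leaving the lymph node, homing and quiescence, 14 were lower, 0 higher and 1 did not pass. The median was -2.04, and 93.3% were called against 43.4% over all genes. This list was chosen with earlier results of these data known, so its count is no independent test. S1pr1, the egress receptor, was at 282, 282, 301, 261, 277 and 250 CPM in the Tfh libraries and at 1186, 1089, 1094, 1171, 1230 and 1097 CPM in the non-Tfh libraries (-2.04 ± 0.06, edgeR adjusted p = 1.7e-11). The member that did not pass was S1pr4 itself (-0.40 ± 0.30), the deleted gene. Ccr7, which keeps T cells in the T cell zone, was at 59.9 to 131 CPM and 1364 to 1595 CPM (-3.93 ± 0.18). Il7r, which gives naive and resting T cells survival signals, was at 18.3, 15.8, 10.6, 17.8, 20.3 and 11.6 CPM and at 470 to 552 CPM (-5.02 ± 0.15). Cd69, which pairs with S1PR1 and removes it from the surface, fell as well (-1.92 ± 0.10), from 155 to 245 CPM to 45.02 to 57.1 CPM. Dapl1 (-4.77 ± 0.14), Gpr18 (-2.19 ± 0.22) and Itgb7 (-0.92 ± 0.08) were also lower, and the groups of each were separate.

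**Figure D2:**
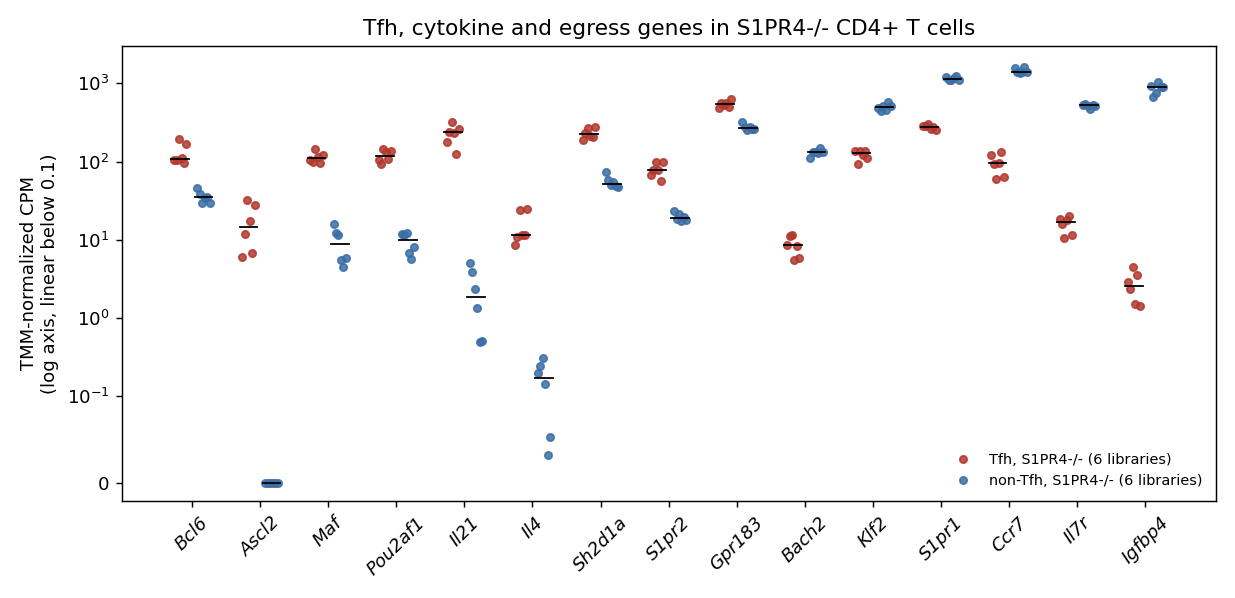
TMM-normalized CPM (log axis, linear below 0.1) of 15 genes in the 6 Tfh (red) and 6 non-Tfh (blue) S1PR4-/- libraries, with a line at each median. The groups are separate for every gene drawn: Bcl6 to Gpr183 are higher in Tfh cells and Bach2 to Igfbp4 lower. Ascl2 had 0 counts in all 6 non-Tfh libraries.

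Il21 and Il7r moved furthest in opposite directions among the lists of cytokines and of receptors for homing and survival, so the RefSeq promoter windows of both are shown (GRCm38.p6, 250 bases before to 50 after the transcription start). Il21 lies on the minus strand at chr3:37232587-37232886 and Il7r on the minus strand at chr15:9529827-9530126. Capitals mark GGAAA or its reverse complement TTTCC, the core that NFAT proteins bind.

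Il21: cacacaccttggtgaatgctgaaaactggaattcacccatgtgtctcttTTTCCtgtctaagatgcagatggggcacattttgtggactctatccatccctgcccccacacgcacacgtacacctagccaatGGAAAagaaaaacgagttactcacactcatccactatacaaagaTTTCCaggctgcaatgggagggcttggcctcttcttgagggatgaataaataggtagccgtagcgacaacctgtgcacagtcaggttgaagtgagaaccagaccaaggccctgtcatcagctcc
Il7r: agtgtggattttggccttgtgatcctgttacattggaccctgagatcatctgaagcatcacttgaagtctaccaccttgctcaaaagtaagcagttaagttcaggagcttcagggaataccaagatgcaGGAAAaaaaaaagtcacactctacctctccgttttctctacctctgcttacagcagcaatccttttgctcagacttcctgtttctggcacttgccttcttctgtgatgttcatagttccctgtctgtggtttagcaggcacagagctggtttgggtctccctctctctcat

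The Il21 window held 3 such cores and the Il7r window 1. At least 1 core stood in 61.3% of 32851 promoter windows of the same length. The share of windows with 3 cores was not counted. Nfatc1, which encodes one of these proteins, was at 979 to 1484 CPM in Tfh cells and 283 to 356 CPM in non-Tfh cells. Whether NFAT proteins bind either window or affect either gene was not tested.

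Genes of other helper lineages were mostly higher in Tfh cells: 11 of 20 rose, 2 fell and 7 did not pass, with a median of 0.89. The share called was 65.0% against 43.4% over all genes. Cxcr3, the chemokine receptor of TH1 cells, was at 107 to 218 CPM in Tfh cells and 15.1 to 53.0 CPM in non-Tfh cells (2.53 ± 0.29). Tbx21, the TH1 regulator T-bet, rose by 0.92 ± 0.32 with overlapping groups, and the call was lost without Tfh replicate 1 (0.76, adjusted p = 0.0633) or Tfh replicate 4 (0.82, adjusted p = 0.0523). Gata3, the TH2 regulator, did not reach 1.5-fold (0.30 ± 0.05). Gzmb ran from 8.80 to 132 CPM among the Tfh libraries and 14.7 to 97.4 CPM among the non-Tfh libraries and did not pass (0.86 ± 0.62, adjusted p = 0.225). With the 3 libraries set aside it did pass (1.89, adjusted p = 0.000111).

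Of 14 genes of regulatory T cells, 5 rose, 4 fell and 5 did not pass (median -0.12), a share of 64.3% called against 43.4% over all genes. Foxp3, their defining factor, was at 172, 133, 79.9, 157, 176 and 76.9 CPM in Tfh cells and 143 to 254 CPM in non-Tfh cells. Its difference of -0.53 ± 0.21 (adjusted p = 0.0388) did not reach 1.5-fold, but did without Tfh replicates 1 (-0.63), 4 (-0.60) or 5 (-0.64) or non-Tfh replicates 4 (-0.61) or 5 (-0.61), and also with total counts in place of TMM scaling (-0.61). Ikzf2, which encodes Helios (1.27 ± 0.17), and Nrp1, neuropilin-1 (1.48 ± 0.19), rose with separate groups. Lrrc32, which presents latent TGF-β (-2.43 ± 0.24), Gpr83 (-2.76 ± 0.19) and Ikzf4, Eos (-1.71 ± 0.23), fell with separate groups. Of 12 coinhibitory receptors and ectoenzymes, 10 rose, 1 fell and 1 did not pass (median 1.79), with 91.7% called against 43.4% over all genes. The 10 include Pdcd1, whose rise follows from the sort. In this list Lag3 rose by 4.05 ± 0.38 and Cd160 by 3.16 ± 0.11, while Cd274, which encodes PD-L1, fell by 0.79 ± 0.12.

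Cell cycle genes were higher in Tfh cells almost throughout: 22 of 24 rose, 1 fell and 1 did not pass. The median was 3.41, and 95.8% were called against 43.4% over all genes. Mki67, the proliferation marker Ki-67, was at 279, 204, 239, 272, 272 and 226 CPM in Tfh cells and at 24.8, 10.9, 23.5, 10.9, 7.81 and 8.32 CPM in non-Tfh cells (4.13 ± 0.28, edgeR adjusted p = 1.81e-08). Ccnb1 (4.47 ± 0.45), Cdk1 (4.601 ± 0.34) and Plk1 (4.62 ± 0.39), which act in mitosis, rose further than Mcm2 of the replication helicase (1.44 ± 0.09). The D-type cyclin Ccnd2 was the one that fell (-0.96 ± 0.11). The summed level of the list was 7587 to 9974 CPM in the Tfh libraries and 2304 to 3332 CPM in the non-Tfh libraries, where replicate 1 was the highest.

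Glycolysis genes followed, with 12 of 16 higher, 0 lower and 4 not passing (median 1.39, 75.0% called against 43.4% over all genes). Tpi1 was at 557 to 955 CPM in Tfh cells and 75.3 to 144 CPM in non-Tfh cells (3.03 ± 0.17), and Gapdh at 2256 to 3088 CPM and 584 to 867 CPM (1.99 ± 0.10). Both genes have processed pseudogenes that can share their reads. Hk2, the inducible hexokinase (2.92 ± 0.44), and Slc16a3, a lactate exporter (3.29 ± 0.29), also rose. Eno1 (0.28 ± 0.10) and the glucose transporter Slc2a3 (-0.51 ± 0.06) did not reach 1.5-fold, and Slc2a3 was called lower with total counts in place of TMM scaling (-0.59).

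Genes that respond to T cell receptor signals were divided: 7 of 18 rose, 4 fell and 7 did not pass, with a median of 0.02. The share called was 61.1% against 43.4% over all genes. Egr2 was at 76.2 to 173 CPM in Tfh cells and 33.4 to 55.9 CPM in non-Tfh cells (1.69 ± 0.18), and Cd44, the activation marker, at 145 to 186 CPM and 30.3 to 50.7 CPM (2.04 ± 0.12). Myc was lower in every Tfh library, 52.2 to 111 CPM against 171 to 258 CPM (-1.46 ± 0.17). Nr4a3 fell too (-1.35 ± 0.28) and Nr4a1 did not reach 1.5-fold (-0.38 ± 0.13). Of the 7 RGS genes, which end G protein signals from chemoattractant receptors, 3 rose and 4 fell (100% called against 43.4% over all genes). Rgs16 was at 10.6 to 41.9 CPM in Tfh cells and 0.628 to 5.54 CPM in non-Tfh cells (3.06 ± 0.50), and Rgs19 fell by 0.67 ± 0.04.

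The genes with the widest changes were named by a rule: at least 10 CPM on average and in every library of the higher group, and no overlap between the groups. Of the 2761 changed genes that met it, 1501 were higher and 1260 lower in Tfh cells. The 12 largest rises included Sostdc1, Padi4, H2-Q2, Il21, Vdr, Ica1l, Tox2, Sccpdh, Cebpa, Fam43a and Angptl2. Sostdc1, a secreted antagonist of BMP and Wnt signals, was at 73.2, 34.7, 91.7, 62.2, 50.2 and 93.5 CPM in Tfh cells and at 0 to 0.982 CPM in non-Tfh cells (8.13 ± 0.57). Padi4, which converts arginine in proteins to citrulline, was at 127, 142, 312, 125, 114 and 305 CPM and at 0.425 to 1.01 CPM (8.05 ± 0.39). Vdr, the vitamin D receptor, was at 32.8 to 112 CPM and 0 to 2.02 CPM (6.33 ± 0.54), and Cebpa, a factor best known in myeloid cells, at 28.3 to 65.6 CPM and 0 to 1.99 CPM (5.86 ± 0.55). Ica1l (6.27 ± 0.46), Sccpdh (5.93 ± 0.54) and Fam43a (5.72 ± 0.40) were also in the set, together with H2-Q2 (6.80 ± 0.45), whose reads are uncertain because other class I genes are nearly identical.

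The 12 largest falls were Igfbp4, Ly6c1, Amigo2, Ampd1, Tspan9, St8sia6, Ggt5, Lypd6b, Pdlim4, Il7r, Tdrp and Prf1. Igfbp4, which binds insulin-like growth factors, was at 2.88, 2.34, 4.47, 1.53, 3.54 and 1.44 CPM in Tfh cells and at 666 to 1041 CPM in non-Tfh cells (-8.31 ± 0.26, edgeR adjusted p = 2.67e-11). Ly6c1 fell by 7.22 ± 0.29, and its reads can be shared with the near-identical Ly6c2. Prf1, perforin, was at 1.84 to 5.22 CPM against 88.0 to 129 CPM (-4.85 ± 0.20). The adhesion protein gene Amigo2 (-6.56 ± 0.20), the AMP deaminase gene Ampd1 (-6.39 ± 0.23), the tetraspanin gene Tspan9 (-6.04 ± 0.34) and the sialyltransferase gene St8sia6 (-5.75 ± 0.22) were at 0.181 to 4.50 CPM in the Tfh libraries. Ggt5, Lypd6b, Pdlim4 and Tdrp fell by 4.96 to 5.70 on the log2 scale.

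Genes of T cell identity were the contrast to all of these. Of 12 tested, 1 rose, 0 fell and 11 did not pass, a share of 8.33% called against 43.4% over all genes. Cd4 was at 828.8 to 1037 CPM in Tfh cells and 725 to 803 CPM in non-Tfh cells (0.38 ± 0.06), and Cd3e at 635 to 777 CPM and 850 to 894 CPM (-0.28 ± 0.05), both separate but under 1.5-fold. The one that rose was Zap70, a kinase of the T cell receptor (0.82 ± 0.08).

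Of 12 B cell markers, 9 could be tested, 8 were higher in Tfh cells and 1 did not pass, with a median of 2.87. Of those tested 88.9% were called, against 43.4% over all genes. In bulk samples fewer cells of a type and less RNA per cell cannot be told apart. Ms4a1, which encodes CD20, was at 0.204, 0.319, 17.5, 0.621, 1.09 and 1.61 CPM in Tfh replicates 1 to 6 and at 0 to 1.67 CPM in the non-Tfh libraries (2.84 ± 1.18, edgeR adjusted p = 0.0436). Cd79a, part of the B cell receptor, was at 0.0227, 0.0799, 21.8, 0.646, 1.44 and 1.71 CPM and at 0.202 to 1.08 CPM (2.87 ± 1.15, adjusted p = 0.0373). Tfh replicate 3 carried most of both, the other 5 Tfh libraries overlapped the non-Tfh libraries, and without replicate 3 the log2 fold changes were 0.62 (adjusted p = 0.555) and 0.40 (adjusted p = 0.656). With a replicate block neither passed (adjusted p = 0.094 and 0.585), and each of non-Tfh replicates 1, 2, 3 and 6, and also 4 for Ms4a1 and 5 for Cd79a, took the call away when left out (adjusted p = 0.0528 to 0.083).

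Other genes of the B cell list behaved differently. Cd22, an inhibitory lectin of B cells, was at 205, 256, 163, 264, 140 and 160 CPM in the Tfh libraries and at 13.8, 10.2, 7.72, 2.60, 5.52 and 4.78 CPM in the non-Tfh libraries (4.76 ± 0.34, edgeR adjusted p = 2.35e-08). It was no higher in replicate 3, the library richest in Ms4a1 and Cd79a, than in replicates 1 and 2, where those genes were near 0. Pax5, the factor that fixes B cell identity, had 66 to 140 counts in every Tfh library and 0 to 5 in the non-Tfh libraries. It was at 1.84 to 4.54 CPM and at 0 to 0.155 CPM (5.92 ± 0.66). Mef2b, a factor of germinal center B cells, was at 10.4 to 17.3 CPM in Tfh cells and 0.173 to 0.815 CPM in non-Tfh cells (4.83 ± 0.27). Cd22, Pax5 and Mef2b were higher in all 6 Tfh libraries than in any non-Tfh library. Pax5 was highest in Tfh replicate 3, the library richest in Ms4a1 and Cd79a (4.54 CPM, against 1.84 to 3.17 CPM in the other 5), while Cd22 and Mef2b were highest in other libraries. All 3 tested genes of the germinal center B cell list, which holds Mef2b and S1pr2, were higher in Tfh cells, against 22.3% of all genes.

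The summed level of the B cell list was 393 to 946 CPM in S1PR4-/- Tfh cells (median 524) and 48.8 to 94.2 CPM in S1PR4-/- non-Tfh cells. In WT Tfh cells it was 570 to 1486 CPM (median 869), so the genotypes overlapped. WT Tfh replicates 1 to 3 (1164, 1486 and 1089 CPM) were above every S1PR4-/- Tfh library. The overlap came from WT Tfh replicates 4 to 6 (570, 649 and 616 CPM). Ms4a1 was at 31.0, 48.45, 33.8, 4.01, 5.195 and 1.36 CPM in WT Tfh replicates 1 to 6. Cd79a was at 39.7, 48.7, 39.5, 5.30, 5.385 and 1.685 CPM there. Most of the sum in S1PR4-/- Tfh cells was Cd74, Cd22 and H2-Aa. Among plasma cell transcripts, Igkc, the kappa light chain gene, was at 1.97 to 51.5 CPM in S1PR4-/- Tfh cells and 141 to 807 CPM in WT Tfh cells, and Jchain at 0.0227 to 9.65 CPM and 13.5 to 148 CPM. The levels did not overlap between the genotypes for either gene, but the levels of Tfh cells were not tested between genotypes. Igkc was at 0.929 to 7.36 CPM in S1PR4-/- non-Tfh cells and 6.15 to 67.3 CPM in WT non-Tfh cells. The interaction, which compares the Tfh to non-Tfh difference between genotypes, did not pass for Igkc (-0.59 ± 0.95, edgeR adjusted p = 0.905) or Jchain (-0.43 ± 1.23, adjusted p = 0.96). In the whole plasma cell list of the S1PR4-/- comparison, 5 of 6 tested genes were higher in Tfh cells (83.3% called against 43.4% over all genes). Its summed level was 758 to 1082 CPM in Tfh cells (median 943) and 914 to 1260 CPM in non-Tfh cells (median 958), so the groups overlapped, and most of it was Ighm (753 to 1030 CPM and 903 to 1256 CPM), which did not pass.

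Myeloid and dendritic cell markers were higher in Tfh cells for 6 of 7 tested genes (85.7% called against 43.4% over all genes). S100a8 was at 0 counts in all 6 Tfh libraries and Clec9a at 0 in 3. The summed level was 90.5, 71.4, 27.2, 52.2, 77.4 and 486 CPM in Tfh replicates 1 to 6 and 11.3 to 37.0 CPM in the non-Tfh libraries. Lyz2, lysozyme of macrophages and neutrophils, was at 351 CPM in Tfh replicate 6 and 6.68 to 40.7 CPM in the other 5, and Csf1r at 60.6 CPM against 2.77 to 13.98 CPM. The class II genes Cd74 (102 to 616 CPM in Tfh cells, 36.4 to 68.9 CPM in non-Tfh cells) and H2-Aa (18.6 to 156 CPM and 1.65 to 7.41 CPM) were highest in this library too, and their groups were separate. The NK cell list had 1 tested gene, Klrb1c, higher in Tfh cells (24.3 to 44.0 CPM against 1.37 to 3.72 CPM), while Ncr1 had no count in 2 Tfh libraries. Of the CD8 T cell genes 1 fell and 1 did not pass (summed level 10.2 to 18.8 CPM and 19.9 to 25.9 CPM), of the stromal list 1 tested gene was higher (0.831 to 2.97 CPM and 0.171 to 0.774 CPM), and red cell genes were at 0 to 0.126 CPM in Tfh cells and 0 to 8.26 CPM in non-Tfh cells. What these markers contribute to the differences above was not tested. With the log2 summed level of B cell markers as a covariate 724 genes were called instead of 5809, and the estimate for Bcl6 was -0.13. The summed level did not overlap between Tfh and non-Tfh libraries, so in that fit the covariate and the population are nearly the same variable.

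**Figure D3:**
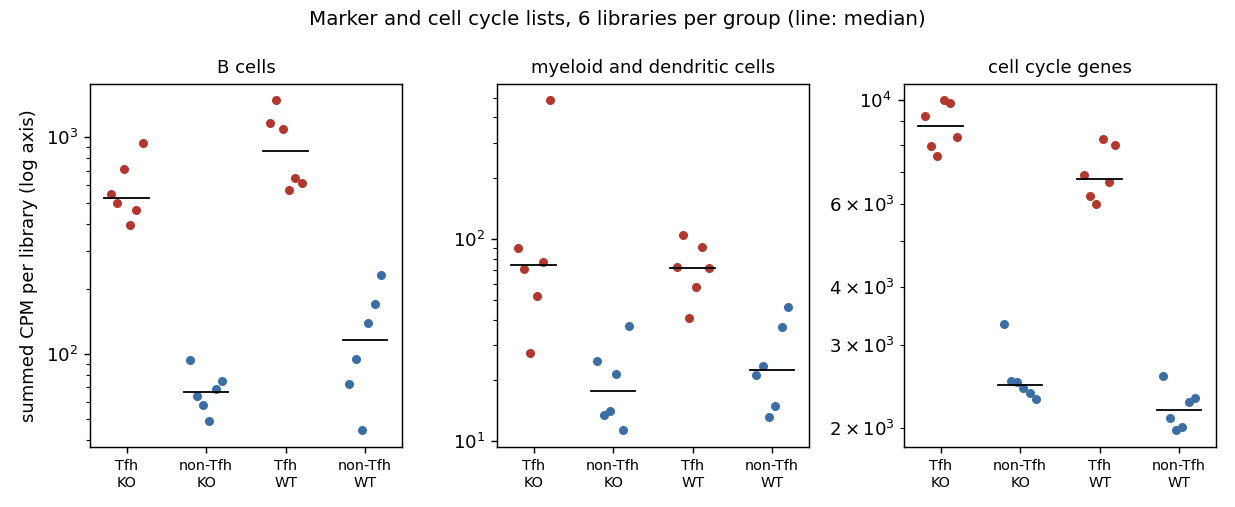
Summed CPM per library (log axis) of the B cell, myeloid and cell cycle lists in Tfh (red) and non-Tfh (blue) cells of both genotypes, 6 libraries a group with a line at the median. S1PR4-/- Tfh replicate 6 stands at 486 CPM in the myeloid list. The B cell sums of S1PR4-/- Tfh cells (393 to 946 CPM) overlap those of WT Tfh cells (570 to 1486 CPM) only through WT replicates 4 to 6.

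Levels of these list genes varied among the 6 S1PR4-/- Tfh libraries. Replicates 3 and 6, singled out after their values were seen, were the highest pair of the 6 for 41 of the 174 tested list genes (23.6%, against 12.0% of all genes tested) and the lowest pair for 54 (31.0%, against 12.1%). The 41 included 10 of the 14 Tfh transcription factors, Bcl6, Ascl2, Maf, Tox2 and Pou2af1 among them, as well as Il21, Il4, S1pr2, Egr2 and Rgs16. They also held genes that were lower in Tfh cells, such as Lef1 (counted among the 10), Foxp1, Il6ra, Ccnd2 and Nr4a3. The 54 included Foxp3, Il2ra, Gzmb, Cxcr3, Ifng, Ccr7, Tpi1 and Myc. They also held the Tfh factors Batf and Stat3, and Il21r, Lif and Tnfrsf4, so the pair was not uniformly higher in Tfh genes. Replicate 3 was the library with the most Ms4a1 and Cd79a. Replicate 6 was the one with the most myeloid transcripts and the highest B cell sum (946 CPM). Most of that sum was Cd74 (616 CPM), Cd22 (160 CPM) and H2-Aa (156 CPM), with Ms4a1 at 1.61 CPM and Cd79a at 1.71 CPM. The pair also had the lowest total counts of the 6, 29280430 in replicate 3 and 30301423 in replicate 6. The other 4 had 38838077 to 45548215. What these transcripts or the depth contribute was not tested. Padi4 showed the same order, 305 and 312 CPM in this pair and 114 to 142 CPM in the other 4.

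The same comparison in WT mice gave 5824 changed genes of 13481 tested (43.2%). Of these, 4885 were changed in both genotypes, 84.1% of the S1PR4-/- list and 83.9% of the WT list, and 4884 of them in the same direction. Across the 13149 genes tested in both, the log2 fold changes had a Pearson correlation of 0.958, a description over genes, which are not independent. In S1PR4-/- and WT mice, the median log2 fold change was 1.51 and 1.75 for Tfh transcription factors. For egress, homing and quiescence genes it was -2.04 and -1.71, and for cell cycle genes 3.41 and 3.36. It was 0.89 and 1.45 for other helper lineages, 0.02 and 0.45 for T cell receptor response genes, -0.68 and -0.14 for RGS genes and -0.12 and 0.16 for regulatory T cell genes, and these gaps between medians were not tested.

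**Figure D4:**
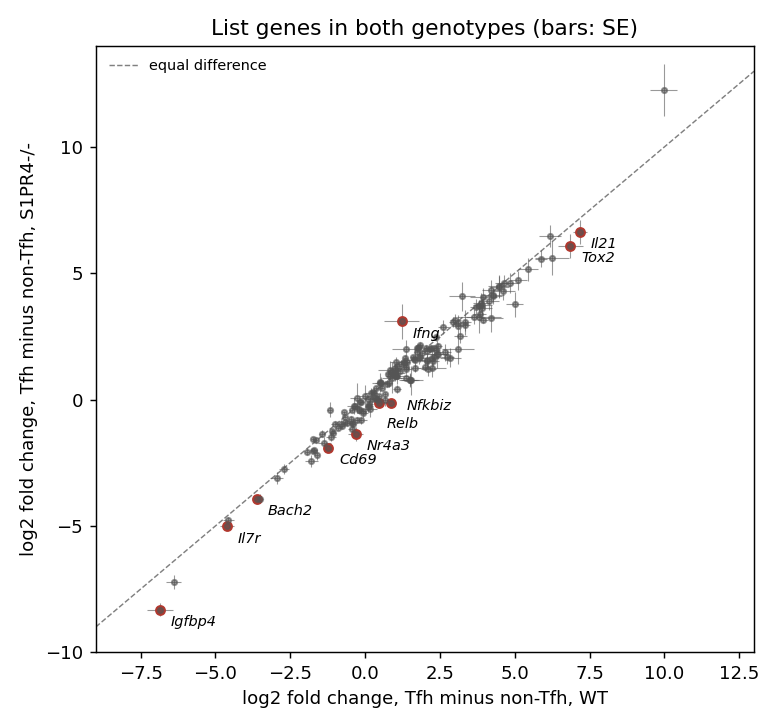
Log2 fold change of Tfh against non-Tfh cells in WT (horizontal) and S1PR4-/- mice (vertical) for 174 list genes, with SE bars and a dashed line of equal difference. Most genes lie near the line, and Relb and Nfkbiz lie below it. The top point is Ascl2, whose fitted value depends on the prior count because its S1PR4-/- non-Tfh libraries are at 0.

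Whether a difference depended on genotype was tested as an interaction over the 24 T cell libraries (edgeR, 14401 genes). Only 2 genes passed at an adjusted p under 0.05 (0.0139% of those tested), both regulators of NF-κB signaling and neither changed in S1PR4-/- cells. Relb, an NF-κB subunit, was at 75.6 to 91.6 CPM in S1PR4-/- Tfh cells and 85.5 to 102 CPM in S1PR4-/- non-Tfh cells (-0.13 ± 0.06), and at 87.7 to 115 CPM and 63.1 to 79.9 CPM in WT mice (0.47). Nfkbiz, which encodes IκBζ, was at 40.0 to 52.2 CPM and 46.02 to 53.6 CPM in S1PR4-/- cells (-0.13 ± 0.07) and at 41.7 to 74.8 CPM and 24.9 to 39.8 CPM in WT cells (0.86). The differences between genotypes were -0.62 (adjusted p = 0.0174) and -1.01 (adjusted p = 0.0453), and neither held with the 3 libraries set aside (-0.59 and -1.04, adjusted p = 0.122 for both). Relb also missed the threshold without WT non-Tfh replicate 1 or 4, WT Tfh replicate 2, S1PR4-/- non-Tfh replicate 1, 3 or 6 or S1PR4-/- Tfh replicate 4, 5 or 6 (adjusted p = 0.0501 to 0.0629), and Nfkbiz without any 1 of 17 of the 24 libraries (adjusted p = 0.0559 to 0.101). With a replicate block 41 genes passed. By Xist and Ddx3y counts of the Tfh libraries, 4 of the 6 from S1PR4-/- mice and 1 of the 6 from WT mice were male. With a Tfh-by-sex term and a replicate block both genes passed (adjusted p = 0.0321 and 0.0263), as did 29 genes in all.

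The 3 genes given next, from the list of egress, homing and quiescence genes, had larger differences in S1PR4-/- mice and did not pass this test. Cd69 had a log2 fold change of -1.92 ± 0.10 in S1PR4-/- and -1.23 in WT mice (interaction -0.72, adjusted p = 0.0758). Itgb7 had -0.92 ± 0.08 and -0.45 (-0.49, adjusted p = 0.129), and S1pr1 -2.04 ± 0.06 and -1.74 (-0.31, adjusted p = 0.237). For Bcl6 the interaction was 0.13 ± 0.22 (adjusted p = 0.916) and for Il21 -0.56 ± 0.55 (adjusted p = 0.817), and neither passed.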

How the data were processed

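The paper's methods name capture of mRNA from the sorted cells on oligo-dT beads. They also name an Illumina stranded total RNA kit with Ribo-Zero Plus for the paired-end libraries. The table deposited by the authors holds expected counts per gene (RSEM), of which 8.83% were not whole (tolerance 1e-06). The submitters' processing notes name cutadapt 2.10, STAR 2.5.3, Picard, RSEM 1.3.0, DESeq2 and the build mm10. The kit is stranded, but the strand setting of the counting is not given in the sources used here, so antisense and overlapping genes may share reads.

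Expected counts were rounded and tested with edgeR 4.0.16 in R 4.3.3 (filterByExpr, TMM, quasi-likelihood F test, two-sided) on the 6 Tfh and 6 non-Tfh S1PR4-/- libraries, without a block. The SE is the log2 fold change divided by the square root of F. DESeq2 1.42.0, limma 3.58.1 voom, other scalings, filters, sample sets, a replicate block and each library left out were alternatives. The fits were tested on simulated data. Named genes were list members with values, the 12 largest rises and falls by the stated rule (without receptor segments, predicted genes and markers of other cells) and genes past the interaction test. Some members of these lists are not reported here. The members and lists were chosen with earlier results of these data known.

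The labels give each replicate a number and do not say that a number marks 1 mouse. The paper's methods give 6 WT and 6 S1PR4-/- mice for the sorts of B and T cells, without tying a mouse to a number. Deviations of same-numbered S1PR4-/- Tfh and non-Tfh libraries from their group means correlated at 0.104 to 0.187, and in WT mice at 0.0528 to 0.247. The non-Tfh library of the same number was the best match for 6 S1PR4-/- Tfh libraries and for 3 WT Tfh libraries. The check cannot settle whether a number marks 1 mouse in either genotype, since libraries that share anything else by number would correlate too. A replicate block treats every number as 1 mouse. Nothing in the labels says that libraries of 1 group are technical repeats, and p-values measure the spread between these libraries.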

Additional observations from a re-analysis of the deposited data

Results flagged for a closer look

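Among the named genes in each group of 6 S1PR4-/- libraries, 20 gene and group pairs (8.03% of those examined) had a library whose gap to the next, divided by the range of the group, was above 0.625 (Dixon's critical value for 6), and chance flags about 1 in 20 of the pairs examined. Non-Tfh replicate 1 was the highest library for 9 genes: Batf (0.697), Prdm1 (0.695), Il21r (0.674), Gzmb (0.687), Ccnb1 (0.627), Mcm2 (0.775), Tpi1 (0.717), Eno1 (0.68) and Sostdc1 (0.707). It was the lowest for Cd84 (0.764). Its Batf level was 124 CPM against 78.3 CPM in the next library, and its Gzmb level 97.4 CPM against 40.6 CPM.

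Tfh replicate 3 was the highest for Ms4a1 (0.919), Cd79a (0.923), Il6ra (0.64) and Lag3 (0.677). Tfh replicate 6 was the highest for Lyz2 (0.901), Csf1r (0.806), H2-Aa (0.678) and Pdlim4 (0.681). Tfh replicate 2 was the highest for Ggt5 (0.664) and Tfh replicate 5 the lowest for Cd4 (0.717). The difference between Tfh and non-Tfh cells depended on genotype for Relb (-0.62) and Nfkbiz (-1.01), log2 values in S1PR4-/- minus WT mice by the edgeR interaction test.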

How the results depend on the processing

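The number of genes changed in S1PR4-/- mice was 5741 to 6129 with each library left out (2891 to 3147 higher, 2740 to 2982 lower) and 5763 with a replicate block, and the block took away no call among the named genes other than Ms4a1 and Cd79a. The log2 sum of B cell markers as a covariate gave 724 genes (372 higher, 352 lower). Under it 17 named genes turned direction: Bcl6 (-0.13), Id3 (-1.51), Id2 (1.17), Cd40lg (-0.51), S1pr4 (1.75), Foxp3 (0.81), Ikzf4 (0.27), Egr2 (-0.23), Egr1 (-0.76), Rgs16 (-1.36), Cd74 (-2.14), H2-Aa (-1.38), Ms4a1 (-5.79), Cd79a (-4.98), Lyz2 (-4.64), Csf1r (-3.66) and Tnf (-1.46). Il2ra turned with voom (-0.15), with the replicate block (-0.17) and without Tfh replicate 5 (-0.21), in a range of -0.21 to 0.34 over the libraries left out. With the 3 libraries that stood apart set aside, a choice made after seeing the data, Stat3 (0.01023), Id2 (0.03271), Ms4a1 (-0.07772) and Cd79a (-0.26) turned.

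The 2 genes whose difference depended on genotype (1325 at an unadjusted p under 0.05) became 41 with the replicate block, 76 with DESeq2, 1 with voom, 6 with the B cell covariate, and 0 to 6 with each library left out. They became 0 with the 3 libraries set aside (1610 at an unadjusted p under 0.05) and 29 with a block and a Tfh-by-sex term, both added after seeing the data. The causes were not tested. At 29280430 or more counts per library, 3 counts are 0.0859 CPM on average in the S1PR4-/- non-Tfh libraries, and genes near that level were not resolved.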
